A study of Mus musculus with 6 samples.

Results

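Chemokines that keratinocytes are known to make were followed in young and aged mouse tail epidermis. The set held 10 genes, Ccl2, Ccl8, Ccl20, Ccl27a, Cxcl1, Cxcl2, Cxcl5, Cxcl10, Cxcl14 and Cxcl16, and its members were the non-control array probes whose RefSeq accession belongs to one of them. All 10 had a probe, among 21368 genes with a named probe, and 12 probes measured them. The samples were total RNA of tail epidermis of wild type C57BL/6 mice, freed from the dermis in EDTA. Young mice, 3 samples, were 8 weeks old. Of the 3 aged samples, replicate 1 was 22 months old and replicates 2 and 3 were 25 months old. The labels name no transgene and no treatment beyond the EDTA step, and leave unstated whether a sample is 1 animal, so the p-values below measure the spread between these samples. The comparison asked which transcripts differ between aged and young epidermis.

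Chemokines are small secreted proteins that guide leukocytes along a gradient to cells that carry the matching receptor. Keratinocytes, the main cells of the epidermis, make some of them at rest and others only after injury, infection or cytokine signals such as interleukin-1, TNF and interleukin-17, which act largely through NF-kB, or interferon-gamma. Cxcl1, Cxcl2 and Cxcl5 attract neutrophils through the receptor Cxcr2. Ccl2 attracts monocytes and T cells, and mouse Ccl8 attracts cells with Ccr8. Ccl20 attracts cells with Ccr6, Cxcl10 cells with Cxcr3, Cxcl16 cells with Cxcr6 and Ccl27a skin-homing T cells with Ccr10. Cxcl14 is made by resting epithelia.

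Promoters of 4 members are shown because they hold motifs of the NF-kB and interferon pathways, and because these genes split below into detected and undetected ones. RefSeq windows on GRCm38.p6, from 250 bases before to 50 after the start of transcription, were at hand for 7 of the 10 members, Ccl8, Ccl20, Ccl27a, Cxcl1, Cxcl2, Cxcl10 and Cxcl14. The NF-kB motif was searched as GGG, 2 bases of any kind and TTTCC, and the interferon response element (ISRE) as GAAA, 2 bases of any kind and GAAA, each on both strands, and no match of one overlapped a match of the other. Capitals mark the matches in the windows of Cxcl1 (chr5:90890995-90891294, plus strand), Cxcl2 (chr5:90903649-90903948, plus strand), Ccl20 (chr1:83116516-83116815, plus strand) and Cxcl10 (chr5:92348840-92349139, minus strand), each written 5′ to 3′.
Cxcl1: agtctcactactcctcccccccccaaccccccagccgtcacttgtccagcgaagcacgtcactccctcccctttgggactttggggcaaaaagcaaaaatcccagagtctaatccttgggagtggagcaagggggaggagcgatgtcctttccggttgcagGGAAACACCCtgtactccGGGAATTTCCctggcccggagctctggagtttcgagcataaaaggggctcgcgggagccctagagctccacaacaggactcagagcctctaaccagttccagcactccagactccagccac
Cxcl2: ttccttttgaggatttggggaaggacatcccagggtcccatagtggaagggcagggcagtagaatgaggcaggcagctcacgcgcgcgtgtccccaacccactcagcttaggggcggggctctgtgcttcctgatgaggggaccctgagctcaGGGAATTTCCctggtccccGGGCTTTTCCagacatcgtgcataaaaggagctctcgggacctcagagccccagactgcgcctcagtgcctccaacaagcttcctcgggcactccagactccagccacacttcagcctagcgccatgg
Ccl20: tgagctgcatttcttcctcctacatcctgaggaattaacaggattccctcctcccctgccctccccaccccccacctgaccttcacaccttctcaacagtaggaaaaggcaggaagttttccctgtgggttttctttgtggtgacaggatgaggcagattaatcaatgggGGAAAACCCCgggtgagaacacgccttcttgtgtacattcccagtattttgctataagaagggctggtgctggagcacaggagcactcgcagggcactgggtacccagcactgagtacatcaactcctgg
Cxcl10: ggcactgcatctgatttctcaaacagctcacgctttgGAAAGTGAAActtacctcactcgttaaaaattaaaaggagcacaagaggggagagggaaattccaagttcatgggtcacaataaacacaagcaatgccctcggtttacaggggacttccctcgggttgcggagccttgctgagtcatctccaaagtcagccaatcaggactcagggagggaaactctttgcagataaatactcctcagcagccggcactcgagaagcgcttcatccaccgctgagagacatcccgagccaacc
Cxcl1 and Cxcl2, neighbours on chromosome 5, held 2 NF-kB matches each, and both windows contain the run GGGAATTTCC. Ccl20 held 1 NF-kB match. Over all 32851 promoter windows of the same length 1.63% held this motif. Cxcl10 held 1 ISRE match, as did Cxcl14, against 3.44% of all windows. These matches describe the letters only. Other forms of either motif were not searched, so unmarked stretches, those of Cxcl10 among them, may hold one.

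Signals are given as log2 of the processed spot intensity minus the 75th percentile of the array, so 0 stands for that percentile. They compare arrays for one probe, not one probe with another. A probe was tested where the scanner software marked it as well above background on 3 arrays or more out of 6, which kept 6 members, Ccl2, Ccl27a, Cxcl1, Cxcl10, Cxcl14 and Cxcl16. The other 4, Ccl8, Ccl20, Cxcl2 and Cxcl5, were not well above background on any array, young or aged. Of the 3 members whose promoter window matched the NF-kB form searched, Cxcl1 was detected while Cxcl2 and Ccl20 were not. Members without a match of that form are not thereby shown to lack an NF-kB site. The 75th percentile of the arrays lay between 230.2 and 300.3 intensity units, and no spot was saturated. All 7 keratinocyte markers listed (Krt1, Krt5, Krt10, Krt14, Krt15, Trp63 and Lor) were above background on every array, and 0 of them passed the threshold of the comparison below. The samples were whole epidermis, so the cell type behind a signal was not resolved, and fewer cells of a type and less RNA per cell cannot be told apart.

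No tested chemokine passed the threshold of a limma adjusted p of 0.05. The background for this count was 0.0778% of the 14135 tested genes, or 11 genes (0 with the replicate number as a block, where 2710 genes had an unadjusted p under 0.05). At an unadjusted p under 0.05 the members' count was also 0 of 6, against 17.7% of tested genes (11.4% higher and 6.3% lower). The aged and young values overlapped for each of the 6, while 27% of tested genes had groups without overlap. Cxcl16, Ccl2 and Cxcl1 had a higher aged mean, and Cxcl14, Ccl27a and Cxcl10 a lower one, where 63.6% of tested genes were higher. The median difference of the 6 was 0.08 log2 units, beside 0.09 over all tested genes.

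**Figure D1:**
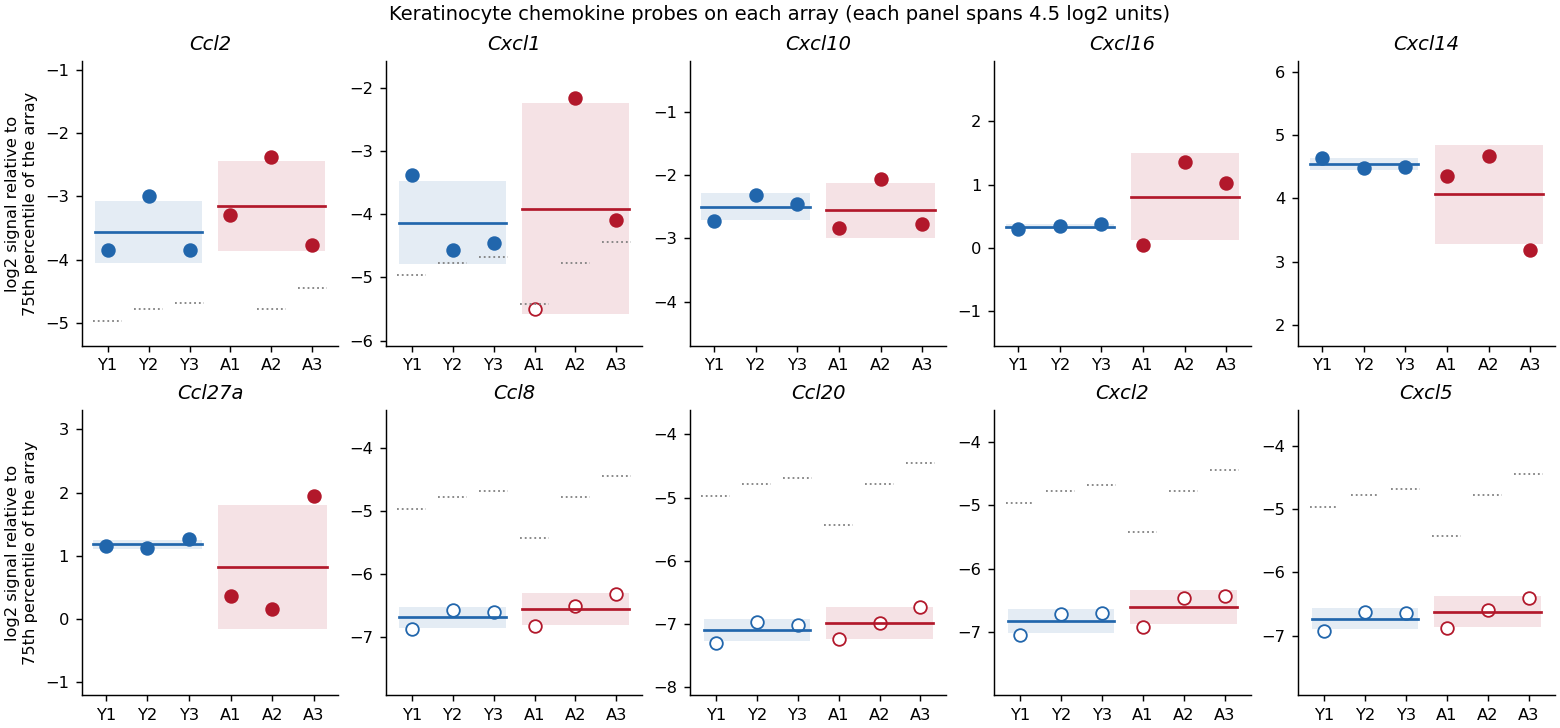
Log2 signal (vertical axis, relative to the 75th percentile of the array) of each chemokine on the young (Y, blue) and aged (A, red) arrays, by replicate number. Filled points were well above background and open ones were not, lines and bands give the mean and SD of 3 arrays, and dotted ticks mark the lowest signal called well above background on that array. Ccl8, Ccl20, Cxcl2 and Cxcl5 lie below those ticks on all 6 arrays, and the aged points of the other genes are spread more widely than the young ones.

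Among the neutrophil-attracting chemokines, Cxcl1 was the 1 detected. Its log2 signal was -3.38, -4.56 and -4.46 on young replicates 1, 2 and 3, and -5.49, -2.17 and -4.09 on aged replicates 1, 2 and 3. Aged replicate 2 was the highest of the 6 and aged replicate 1 the lowest, where the probe was not above background, and the young values lay between them. With aged replicate 1 set at the lowest signal called well above background on that array, Cxcl1 spanned at least 3.26 log2 units, or at least 9.56-fold, over the arrays. The aged mean of -3.92 ± 1.67 and the young mean of -4.13 ± 0.65 (SD, n = 3 arrays each) differed by 0.22 ± 0.84 (SE, limma adjusted p = 0.913). The sign rested on 1 array: without aged replicate 2 the difference was -0.66, and without aged replicate 1 it was 1.00.

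Cxcl2 and Cxcl5, which share the receptor Cxcr2 with Cxcl1, stayed between -7.05 and -6.40 on all arrays. Each lay at least 1.46 log2 units under the lowest signal called well above background on the same array, so no fold is given for them. The receptor gene itself was detected on all arrays. Cxcr2 had a log2 signal of -1.73, -1.16 and -1.42 on the young arrays and -1.31, 0.05 and -0.24 on the aged ones. Aged replicates 2 and 3 were above every young array, and aged replicate 1 lay within the young range. The difference was 0.93 ± 0.37 (SE, limma adjusted p = 0.263).

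Cell markers of neutrophils stand beside these values. Of 6 listed markers 5 had a probe and 4 were tested, and none of the 4 passed the threshold. Ngp, a granule protein gene of immature neutrophils, was not above background on any array. Mpo was not above background on young replicate 3 and aged replicates 2 and 3. It was set there at the lowest signal called well above background. The markers' median deviation from the young mean then lay between -0.08 and 0.08 on the young arrays. On the aged arrays this median lay between -0.15 and -0.04. The part of these markers in the Cxcl1 and Cxcr2 values was not tested.

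Ccl2 was detected on every array and Ccl8 on none. Ccl2 had a log2 signal of -3.85, -3.00 and -3.85 in young epidermis, and of -3.30, -2.37 and -3.77 in aged epidermis, for replicates 1, 2 and 3 in turn. Replicate 2 was the highest array of each group, and the groups overlapped. The difference was 0.42 ± 0.41 (SE, 95% interval -0.59 to 1.42, limma adjusted p = 0.616). With the replicate number as a block the SE was 0.16 (limma adjusted p = 0.260). Without aged replicate 2, in the fit without that block, the difference was 0.031. Ccl8 lay between -6.87 and -6.31. Its receptor in the mouse, Ccr8, was above background on 2 young and 2 aged arrays (difference 0.25 ± 0.42, adjusted p = 0.782), and Ccr2, the receptor of Ccl2, on none. Among 9 macrophage and monocyte markers, Adgre1, Lyz2, Cd163, Mrc1 and C1qa were not tested because of low signal. Of the 4 that were tested none passed the threshold, and they differed in both directions. Cd68, a lysosomal protein gene, differed by 0.62 ± 0.17 (limma adjusted p = 0.181) and Cd14, a receptor gene for bacterial products, by 0.32 ± 0.11 (adjusted p = 0.225). The growth factor receptor gene Csf1r differed by -0.66 ± 0.28 (adjusted p = 0.287) and the complement gene C1qb by -0.26 ± 0.14 (adjusted p = 0.353). The groups of each of these 4 did not overlap, where 27% of all tested genes had groups without overlap. The part of these markers in the Ccl2 values was not tested.

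Cxcl16, a chemokine made as a membrane-bound protein and released by the sheddase ADAM10, had the smallest p of the set. Its log2 signal was 0.30, 0.34 and 0.37 on the young arrays, and these lay close together. On aged replicates 1, 2 and 3 it was 0.04, 1.36 and 1.02. The aged samples of 25 months were thus above every young array and the aged sample of 22 months below them. The young mean was 0.34 ± 0.03 and the aged mean 0.81 ± 0.68 (SD over n = 3 arrays). They differed by 0.47 ± 0.33 (SE, 1.39-fold, 95% interval 0.791-fold to 2.43-fold, limma adjusted p = 0.478), and 18% of tested genes differed by at least as much.

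The call for Cxcl16 depended on aged replicate 1. Without this array the difference was 0.85 ± 0.15 (limma adjusted p = 0.0355), in a fit in which 5.72% of genes passed the threshold. The Y-linked genes Ddx3y, Eif2s3y and Kdm5d were above background in replicate 1 of each group and in no other sample, and Uty also in young replicate 3. Without aged replicate 1, no aged array had any of these 4 genes above background, while young replicate 1 had all 4. Without replicate 1 of both groups the difference was 0.84 ± 0.16 (adjusted p = 0.0890). Over the 18 alternatives tried the adjusted p of Cxcl16 lay between 0.0355 and 0.803. The receptor gene Cxcr6, which T cells of the skin carry, differed with the opposite sign. Cxcr6 had a signal of -0.96, -0.91 and -1.23 on the young and -1.57, -1.48 and -1.43 on the aged arrays, without overlap of the groups, and a difference of -0.46 ± 0.13 (SE, adjusted p = 0.187). Adam10 differed by 0.00 ± 0.18 (adjusted p = 0.997).

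Cxcl10, an interferon-induced chemokine, spanned the least of the 6 tested members over the arrays, 0.78 log2 units. It had log2 signals of -2.73, -2.31 and -2.45 in young epidermis. In aged epidermis they were -2.84, -2.06 and -2.77. Aged replicate 2 was again the highest array, and the 2 other aged arrays lay below the young ones. The difference was -0.06 ± 0.24 (SE, 95% interval -0.65 to 0.54, limma adjusted p = 0.921), and its sign turned under scaling to the array median (0.019) and under quantile normalization (0.029). Its receptor gene Cxcr3 was above background on 1 young array and no aged array. Cxcl9, which shares that receptor, was not above background on any array.

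Ccl27a, the skin-homing chemokine made by resting keratinocytes, and Cxcl14 were even among young arrays and uneven among aged ones. The brightest Ccl27a probe (A_55_P2068734) gave log2 signals of 1.16, 1.13 and 1.27 on the young arrays. It gave 0.37, 0.16 and 1.95 on aged replicates 1, 2 and 3. Aged replicates 1 and 2 were below all young arrays, and aged replicate 3 was above them. The difference was -0.36 ± 0.47 (SE, 95% interval -1.49 to 0.77, limma adjusted p = 0.708). Without aged replicate 3 it was -0.92 ± 0.13 (adjusted p = 0.172), and without aged replicate 2 it was -0.03.

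The 3 Ccl27a probes did not read alike. A_55_P2068723 followed the brightest probe, at 0.98, 1.06 and 1.11 in young and 0.47, 0.28 and 1.91 in aged epidermis. The dimmer A_55_P2070576, which carries the same accession as the brightest, gave -1.89, -2.20 and -2.37 in young and -1.05, -1.70 and -1.74 in aged epidermis. It was higher on each aged array than on any young array. In the fit over probes it differed by 0.66 ± 0.23 (SE, limma adjusted p = 0.241), against -0.36 ± 0.46 for the brightest, and the mean over the 3 probes differed by 0.046. Ccl27b, a closely related copy, had no probe named for it, and how far these probes also read it was not tested. Ccr10, the receptor of Ccl27a, had signals of -4.30, -3.67 and -2.87 in young and -2.84, -2.27 and -3.80 in aged epidermis, with a difference of 0.64 ± 0.50 (adjusted p = 0.519).

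**Figure D2:**
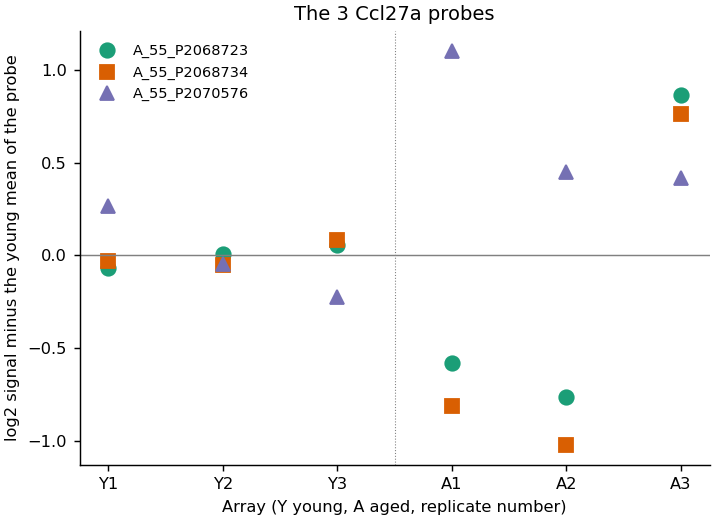
Log2 signal of the 3 Ccl27a probes minus the young mean of each probe (vertical axis), on each young (Y) and aged (A) array. On aged replicates 1 and 2 the probes A_55_P2068723 and A_55_P2068734 lie below 0 while A_55_P2070576 lies above it, and on aged replicate 3 all 3 lie above 0.

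Cxcl14 had log2 signals of 4.65, 4.48 and 4.49 in young epidermis, and of 4.36, 4.66 and 3.18 in aged epidermis. Aged replicate 3 stood apart as the lowest array, with a deviation from the young mean of -1.36, while aged replicates 1 and 2 deviated by -0.18 and 0.12. The difference was -0.47 ± 0.38 (SE, 95% interval -1.40 to 0.45, limma adjusted p = 0.530), and without aged replicate 3 it was -0.03. Markers listed for hair shaft and sheath, which include the tail scale keratins Krt31 and Krt35, were lowest on the same array. Relative to the young mean their median was -5.79 there, compared with -3.37 for aged replicate 2, -0.65 for aged replicate 1 and -0.43 to 0.25 among young samples. All 6 of these markers were tested and lower in the aged mean, and 0 passed the threshold. Without aged replicate 1, 5 of these markers passed, Krt31 and Krt35 among them, as did 5.72% of all genes. Without replicate 1 of both groups 1 did, the tail scale keratin Krt35. The part of these markers in the Cxcl14 value was not tested.

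Ccl20, the Ccr6 ligand with an NF-kB match shown above, stayed between -7.29 and -6.73 and at least 1.80 log2 units below the lowest signal called above background. Ccr6 was not above background on any array either. Langerhans cells, antigen-presenting cells of the epidermis, were uneven across the aged arrays. The 7 listed markers, among them Cd207, the langerin gene, had a median deviation of -1.22 for aged replicate 2 and -0.012 for replicate 3, with young samples between -0.41 and 0.20. All 7 were tested and 0 passed the threshold, and Cd207, H2-Aa and Itgax were not above background on aged replicate 1. With these 3 set at the lowest signal called well above background, the median deviation there was -3.43. Cd74, above background on all arrays, had -3.10 on aged replicate 1 and 0.53, 1.07 and 1.22 in young epidermis. The array lowest for these markers was thus also lowest for Cxcl1, Cxcl10 and Cxcl16. Aged replicate 2, with a marker median of -1.22, was instead the highest array for each of these chemokines. The part of Langerhans cells in the values of these 3 chemokines was not tested.

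A wider spread among aged than among young arrays was common to the detected chemokines. The aged SD exceeded the young SD for all 6, which held for 67.7% of tested genes. The ratio of the SDs was 20.3 for Cxcl16, 13.7 for the brightest Ccl27a probe, 8.60 for Cxcl14, 2.05 for Cxcl10 and 1.45 for Ccl2. The Cxcl16 ratio rests on a young SD of 0.03, and 95.2% of tested genes had a young SD at least as large. The dimmer Ccl27a probe A_55_P2070576 had an aged SD of 0.39 and a young SD of 0.25. For Cxcl1 the aged SD was 1.64 and the young SD 0.65, with aged replicate 1, not above background, set at the lowest signal called well above background there. An aged SD at least as large as that of Ccl27a was seen for 6.02% of tested genes. For Cxcl14 the share was 8.74%, for Ccl2 10.1%, for Cxcl16 10.7% and for Cxcl10 20.8%. Aged replicate 2 was the highest of the 6 arrays for 5 of 6 members, all but Ccl27a, whereas it was highest for 10.1% of tested genes. Aged replicate 1 was lowest for 3 of 6, against 24% of tested genes. The aged samples also differ in age, 22 against 25 months, and each group holds 3 arrays. Aged replicate 1, the sample of 22 months, was also the only aged array with the Y-linked genes named above over background. These 2 traits cannot be told apart within the aged group.

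Of the other chemokine ligands, 26 of 28 had a probe, 8 were tested and 0 passed the threshold. The smallest p belonged to Ccl19, a ligand of Ccr7 (0.58 ± 0.18), and Ccl6 (0.56 ± 0.18), with limma adjusted p of 0.205 and 0.212. Ccl3, an attractant of monocytes and T cells, was above background on 3 aged and 0 young arrays, so that it entered the test through its aged arrays, and its aged signal exceeded the young one by at least 1.64-fold (adjusted p = 0.233). This bound sets the aged mean against, for each young array, the higher of the probe's own signal and the lowest signal called well above background. Cxcl12, a chemokine of stromal cells, differed by -0.85 ± 0.38 (adjusted p = 0.303). Without aged replicate 1, Ccl6 (0.73 ± 0.14, adjusted p = 0.0448) and Ccl28, an epithelial ligand of Ccr10 (1.45 ± 0.21, adjusted p = 0.0248), passed, as did 5.72% of all genes. Without replicate 1 of both groups Ccl28 passed (adjusted p = 0.0266) and Ccl6 did not (adjusted p = 0.0834).

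All 22 receptor genes listed had a probe, 9 were tested and 0 passed. Their median difference was 0.57, beside 0.09 over all tested genes. A higher aged mean was seen for 8 of the 9, where 63.6% of all tested genes were higher. The smallest p belonged to Ackr2, a decoy receptor that takes up and degrades inflammatory CC chemokines such as Ccl2. Ackr2 had signals of -3.78, -3.40 and -3.85 on the young arrays and -3.01, -2.46 and -2.14 on the aged ones, with every aged array above every young one. It differed by 1.14 ± 0.25 (SE, limma adjusted p = 0.139), and by 1.38 ± 0.19 without aged replicate 1 (adjusted p = 0.0216). Ackr4, another scavenging receptor, differed by 0.57 ± 0.34 (adjusted p = 0.404). Cxcr2 also passed without aged replicate 1 (1.34 ± 0.21, adjusted p = 0.0279), in the fit in which 5.72% of all genes did. Without replicate 1 of both groups neither passed, with an adjusted p of 0.0740 for Ackr2 and 0.0661 for Cxcr2. Ackr1 was not above background on any array.

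**Figure D3:**
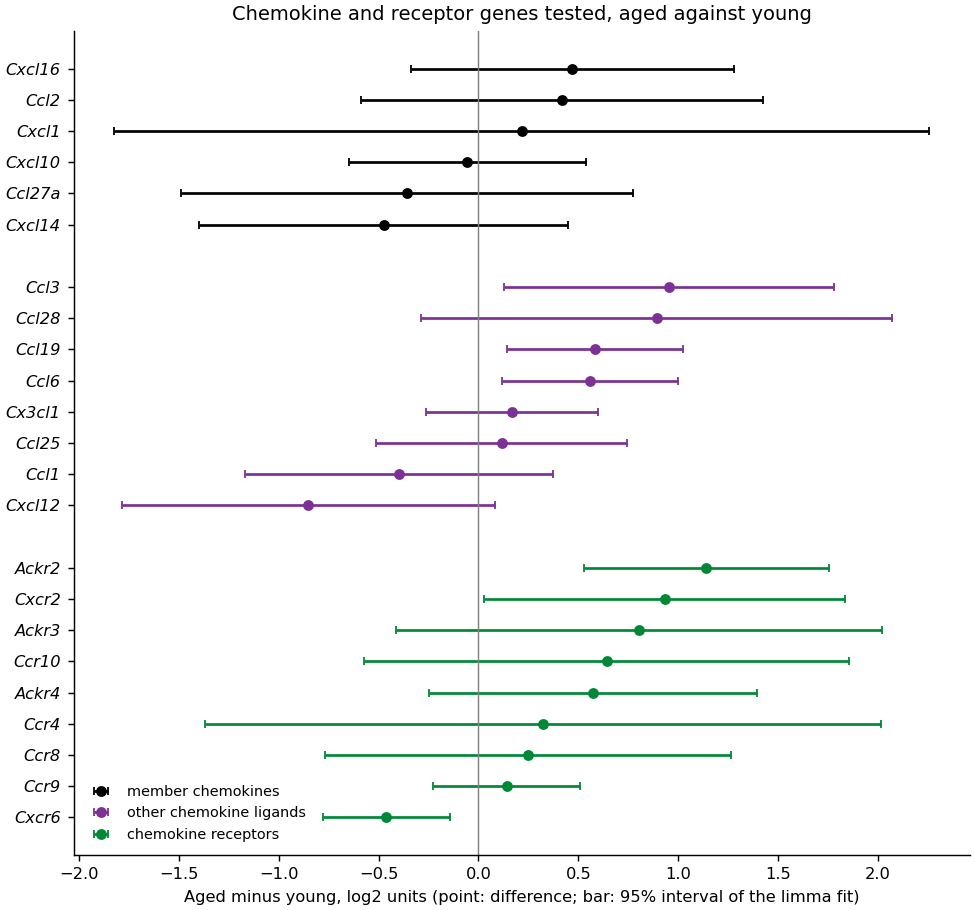
Difference of aged minus young epidermis in log2 units (points) with the 95% interval of the limma fit (bars), for the tested members (black), other chemokine ligands (purple) and chemokine receptors (green). The intervals of the 6 members all cross 0, the value of Ccl3 is the fitted one although its young arrays were not above background, and Ackr2 has the receptor difference farthest from 0, at 1.14.

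Genes of the pathways that induce these chemokines were listed too. Of 20 NF-kB and cytokine genes 16 were tested and 0 passed, with a median difference of 0.12. The adaptor gene of interleukin-17 receptors Traf3ip2 (0.46 ± 0.14), the NF-kB subunit gene Rela (0.40 ± 0.16), the TNF receptor gene Tnfrsf1a (0.41 ± 0.17) and Relb (0.37 ± 0.21) had the smallest p, with limma adjusted p of 0.199 to 0.380. As for Cxcl1 and Cxcl16, aged replicate 1 was often the lowest array, for 8 of 16 genes against 24% of all tested genes. Tnfaip3, a feedback inhibitor of NF-kB, had signals of 0.57, 0.58 and 0.74 on the young arrays and -0.88, 1.87 and 1.25 on aged replicates 1, 2 and 3. Nfkbiz, a nuclear cofactor of NF-kB, had 0.48 on aged replicate 1 against 1.49 to 1.99 on all other arrays. The cytokine genes Tnf and Il6 were above background on 1 aged array each, and Il1b on none.

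Of 12 interferon pathway genes 11 were tested and 0 passed, with a median difference of 0.38 and 10 of 11 higher in the aged mean, where 63.6% of all tested genes were. The 4 with the smallest p were the receptor gene Ifnar2 (0.68 ± 0.18), Stat2 (0.46 ± 0.16), the feedback inhibitor Socs1 (0.82 ± 0.29) and Irf1 (0.48 ± 0.17), with limma adjusted p of 0.173 to 0.233. For each of these 4, chosen by p, the aged arrays lay above the young ones, and 27% of all tested genes had groups without overlap. Socs1 was higher past the threshold without aged replicate 1, in the fit in which 5.72% of all genes passed. Without replicate 1 of both groups 0 of the interferon genes passed. Of 6 proteases that act on chemokines 5 were tested and 0 passed. Mmp2, a protease that cleaves Ccl7, differed by 0.81 ± 0.21, Dpp4, which removes the first residues of Cxcl10, by -0.97 ± 0.25, the lysosomal Ctsb by -0.45 ± 0.16 and Adam17 by 0.25 ± 0.19, with adjusted p of 0.167, 0.168, 0.227 and 0.504. Dpp4 passed without aged replicate 1 (-1.25 ± 0.13, adjusted p = 0.0122) and without replicate 1 of both groups (adjusted p = 0.0458).

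**Figure D4:**
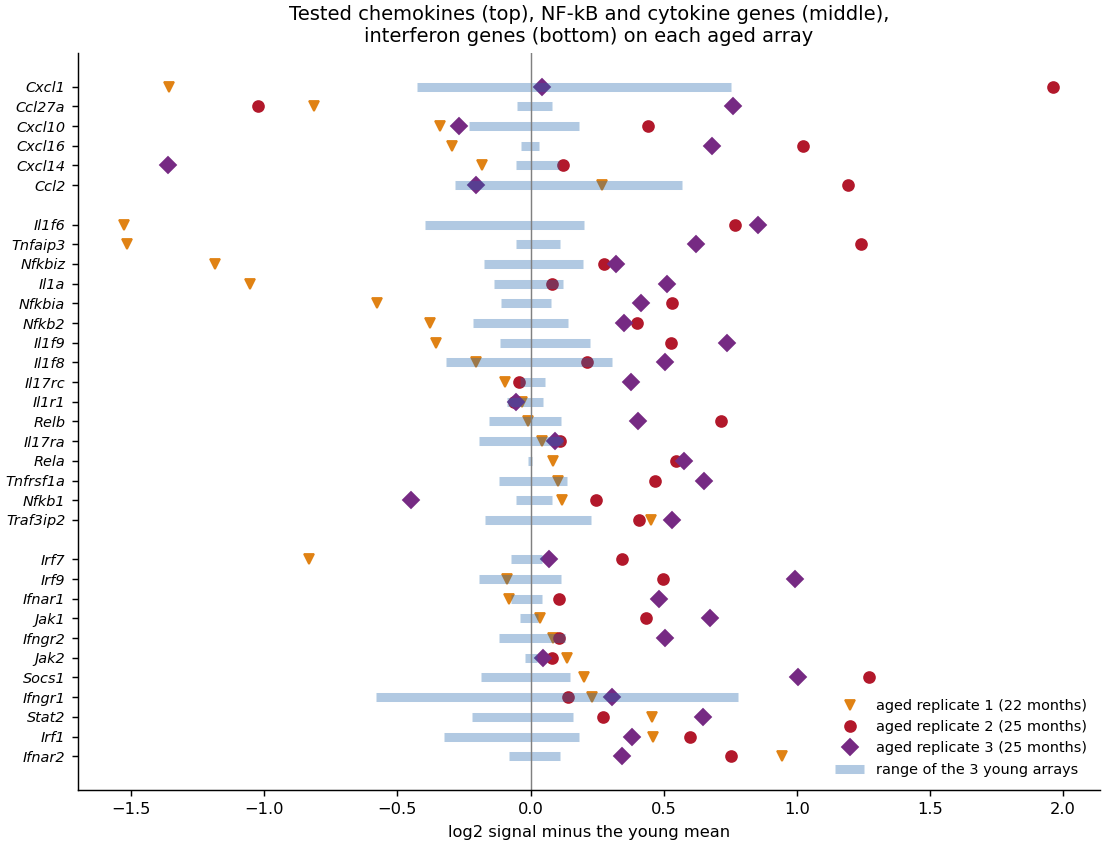
Log2 signal on each aged array minus the young mean (horizontal axis) for the tested chemokines, the NF-kB and cytokine genes and the interferon genes, with bars for the range of the 3 young arrays. Aged replicate 1 lies at the low end for Tnfaip3, Nfkbiz, Cxcl1 and Cxcl16, and aged replicate 2 is the highest aged array for all members but Ccl27a. Il1f6, Il1f8 and Il1f9 are the annotation's names of the interleukin-36 genes.

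Genes with the profile most like a member's were found by the mean absolute difference over the 6 arrays, each gene centred on its own mean, among 13076 other genes above background on all arrays. Nearest to Cxcl16 were Stk40 and Ifi202b, at 0.05 log2 units each. Nearest to Cxcl14 were Eps8 at 0.08 and Cavin2 at 0.11, nearest to Ccl2 Nup214 at 0.14 and Klhl24 at 0.20, and nearest to Ccl27a Scgb1a1 at 0.18 and Syt11 at 0.19. Stk40 and Ifi202b were lowest on aged replicate 1 and highest on aged replicate 2, as was Cxcl16, by whose profile they were chosen. These likenesses are descriptions over 6 arrays.

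T cell and further cell markers complete the picture of what the samples held. Of 6 epidermal T cell markers 3 were tested and 0 passed. Cd3e had signals of 0.09 to 0.24 in young and 0.23 to 0.27 in aged epidermis (0.07 ± 0.10, limma adjusted p = 0.762). Thy1, which epidermal T cells and other cells carry, differed by 1.60 ± 0.47 (adjusted p = 0.192). Cd3g, above background on 2 young arrays and 1 aged array, differed by -0.97 ± 0.73 (adjusted p = 0.506). Fibroblast genes were the exception among the lists. Of 4 tested, Col1a1, above background on 3 young and 2 aged arrays, was lower past the threshold (fitted difference -2.95 ± 0.18, limma adjusted p = 0.0283). So was Col3a1, which was above background on 3 young and 0 aged arrays, so that it entered the test through its young arrays, and which was at least 5.14-fold lower in aged epidermis (adjusted p = 0.0467). Neither passed with the replicate number as a block (adjusted p = 0.153 each), nor when 1 array other than aged replicate 1 was left out. With normexp, with probes above background on at least 1 array and with no filter, neither passed either. Under quantile normalization Col1a1 passed and Col3a1 did not. Dcn, a proteoglycan gene, had 4.34, 1.92 and 1.19 on the aged arrays against 1.95 to 2.84 on the young ones (0.21 ± 0.80, adjusted p = 0.911). Of 6 melanocyte, 2 mast cell and 3 endothelial markers tested, 0 passed. Without aged replicate 1, Thy1 was higher and Col1a2 and all 6 melanocyte markers were lower past the threshold, in the fit in which 5.72% of all genes passed. Of these markers Tyr was above background on 3 young arrays and, among the aged, on replicate 1 only. In that fit Tyr was thus above background on young arrays alone. Without replicate 1 of both groups Col1a2 and 3 melanocyte markers passed and Thy1 did not, where 1.52% of all genes passed. The part of these cells in the chemokine values was not tested.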

How the data were processed

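Spots were quantified by Feature Extraction 11.5.1.1 from 1 slide in 1 scan, per the file headers. The authors deposited processed spot intensity with background subtracted and spatial trends removed, per the file headers, and without any scaling that makes arrays comparable. The scanner's flags for background, saturation and outlier spots were used as deposited. The authors' deposited table of log2 values (33870 probes) matched the values below after centring each probe on its median (r of at least 0.9999 on each array).

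From each log2 processed signal the 75th percentile of its array was subtracted. Control spots were dropped, as were outlier spots (116 to 170 per array), and repeated spots were averaged by probe. Accessions were named through the RefSeq table of GRCm38.p6, which matched 28331 of 55681 probes, and genes keep that table's symbols. The brightest tested probe stood for a gene. This gave 25066 features, of which 14135 were named genes. The groups were compared by limma 3.58.1 in R 4.3.3 (two-sided moderated test from lmFit and eBayes), adjusting by Benjamini-Hochberg across every feature. Differences are aged minus young. Median deviations are over a list's tested genes. The fit was tested on simulated data. The smallest p that an exact permutation test could reach here is 0.1, and none was run.

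The members and all gene lists were chosen with earlier results of these data known, and some list genes are not reported here. The genes named are all members, up to 4 genes per further list by unadjusted p, the receptors of members, and the 2 genes with the nearest profile for members above background on all arrays that span at least 1 log2 unit. Adam10, Ccl28, Tnfaip3, Nfkbiz and other list genes named beside these were chosen after their values were seen, as were the marker genes singled out.

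Sample titles number the replicates 1 to 3 in each group. Across features, the deviations from the group mean of samples with equal numbers had r of 0.414, 0.259 and 0.102, each over 0.1, which meets the rule set for pairing, although the labels name nothing the numbers share. All values are from the fit without the pairing unless the replicate block is named. Features do not count as independent replicates there. The alternatives covered scaling, background correction (normexp with an offset of 50 on median signals), the filter, the probe choice, array weights, the deposited log2 table, the replicate block, the slide row and each array left out.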

Additional observations from a re-analysis of the deposited data

How the results depend on the processing

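The count of genes past the threshold, 11, was unstable. It was 21 with each array scaled to its median, 7 under quantile normalization, 3 with normexp, 2 for probes above background on at least 1 array, 3 for all 6 arrays, 1 with no filter and 1108 with array weights. It was 0 with the replicate block and 0 when slide row was the block (2710 and 858 genes at an unadjusted p under 0.05). Leaving out 1 array gave 0 to 809, the latter without aged replicate 1, and leaving out replicate 1 of both groups gave 215. The count of chemokines past the threshold was 0 under all of these except without aged replicate 1 (range 0 to 1 over arrays left out), where Cxcl16 passed. The replicate block changed no chemokine's call and ended those of Col1a1 and Col3a1 (adjusted p = 0.153 each).

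Ccl2, Cxcl14 and Cxcl16 kept their sign in all 18 alternatives. Cxcl10 turned from -0.057 to 0.019 with median scaling, 0.029 with quantile normalization and 0.17 with array weights, and ranged from -0.31 to 0.085 over arrays left out. Over single arrays left out Cxcl1 ranged from -0.66 (without aged replicate 2) to 1.00 (without aged replicate 1). It was 1.38 without replicate 1 of both groups and 1.46 with array weights, and it could not be fitted where all 6 arrays had to be above background. Ccl27a turned to 0.046 with the mean of its probes, which disagree. The cause was not tested for the other reversals. Array weights were estimated gene by gene, since the default estimate did not converge. The slide row rests on 1 young array, since the other row held young arrays only. Signal over background limits Cxcl1, and Ccl8, Ccl20, Cxcl2 and Cxcl5 gave no level.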
